A study of Mus musculus with 14 samples.

Results

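Otx2, Fgf5, Pou3f1, Zic2, Zic5, Sall2 and Tead2 are genes known for their expression in the primed epiblast, the pluripotent tissue of the mouse embryo after implantation. They were taken by symbol from a table of read counts with 24015 gene rows, each of the 7 symbols was found, and all 7 passed the filter on low counts that 16247 genes passed. RNA was sequenced in 14 mouse libraries, 2 per group, and the submitters call the 2 libraries of a group biological duplicates. Replicate 2 of MM401 P2 is titled P2b without further explanation. No label says whether the duplicates of a line were separate cultures, so the p-values speak of the spread between libraries, which may be technical.

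MM401 is an inhibitor of Mll1, a histone methyltransferase that places methyl groups on lysine 4 of histone H3. The MM401 day 3 and MM401 P2 groups were CD1/JF1 epiblast stem cells (EpiSC) kept with 100 µM MM401 in knockout DMEM medium with LIF and serum replacement, for 3 days or for 6 days up to passage 2. The rES groups were lines reverted from EpiSC and had the genotype CD1-deltaTSIX/JF1. They were grown in the same LIF medium to passage 6 or passage 30, with 25 µM MM401 after passage 3, and 1 passage 30 group was grown without it, for a time that is not stated. The untreated EpiSC were CD1/JF1 cells labelled as derived from blastocysts and kept in knockout DMEM with 20% serum replacement and 10 ng/ml bFGF. The embryonic stem cells (ESC) were CD1/JF1 cells, also labelled as blastocyst-derived, kept with LIF and 15% serum replacement in Glasgow medium on feeder cells. LIF medium and MM401 were given together, so their effects against EpiSC cannot be told apart, and for the rES groups the deltaTSIX genotype cannot be told apart from reversion. Against ESC, the MM401 and rES groups also differed in base medium. Between rES passage 6 and MM401 P2, genotype, passage and MM401 dose differed together. The effects of these cannot be told apart either.

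Naive pluripotent cells, such as ESC in LIF, resemble the epiblast before implantation, whereas EpiSC resemble the epiblast after it and depend on FGF and activin signals. On leaving the naive state, cells pass through a formative phase in which Otx2, a homeodomain factor, and Pou3f1 (also called Oct6), a POU domain factor, act with Pou5f1 at new enhancers, and in which the secreted ligand Fgf5 is switched on. Zic2 and Zic5 are zinc finger factors that lie next to each other in a head-to-head pair, Sall2 is a zinc finger factor of the spalt family, and Tead2 is a DNA-binding partner of the Hippo pathway coactivators Yap1 and Wwtr1.

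The 250 bases before an annotated start are shown for 3 of the genes, Fgf5 and Sall2 because their levels had the widest ranges between groups, and Otx2 because it was higher in the rES groups while those were lower. The sequences are from RefSeq on GRCm38.p6, a later build than the mm9 named in the submitters' processing notes, and CG dinucleotides are in capitals. Only windows that no GENCODE M21 exon overlaps are shown, and 5 of the 7 genes matched an entry (not Zic2 and Pou3f1).
Fgf5, chr5:98253934-98254183, plus strand: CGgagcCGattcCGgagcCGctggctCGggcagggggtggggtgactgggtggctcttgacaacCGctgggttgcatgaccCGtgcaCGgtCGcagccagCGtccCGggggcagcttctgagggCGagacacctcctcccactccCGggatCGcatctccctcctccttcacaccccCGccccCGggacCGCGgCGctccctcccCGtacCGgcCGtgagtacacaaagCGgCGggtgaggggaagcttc
Otx2, chr14:48667645-48667894, minus strand: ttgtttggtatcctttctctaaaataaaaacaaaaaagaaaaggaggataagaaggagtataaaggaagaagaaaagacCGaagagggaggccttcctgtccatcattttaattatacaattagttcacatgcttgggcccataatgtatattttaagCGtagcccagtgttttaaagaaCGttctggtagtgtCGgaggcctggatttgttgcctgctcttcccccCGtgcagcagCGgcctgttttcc
Sall2, chr14:52316324-52316573, minus strand: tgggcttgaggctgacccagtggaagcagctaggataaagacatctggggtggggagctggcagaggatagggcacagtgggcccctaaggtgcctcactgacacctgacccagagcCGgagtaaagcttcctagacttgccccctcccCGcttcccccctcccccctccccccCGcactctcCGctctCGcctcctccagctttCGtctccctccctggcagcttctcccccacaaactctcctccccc

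The Fgf5 window was rich in CG, with 24 such dinucleotides, and 88% of the 32851 windows of the same length had fewer. The Otx2 and Sall2 windows held 6 CG each, the median of all windows, for which the quartiles were 2 and 16. A set of 4 motifs was searched on both strands: TAATCC (bound by OTX factors), GGAATG (bound by TEAD factors), TAATTA (a homeodomain core) and TATAAA. The Otx2 window held 1 TAATTA, found in 4.84% of all windows, and 1 TATAAA, found in 12.4%. None of the 4 motifs was found in the Fgf5 and Sall2 windows shown, and TAATCC and GGAATG, which 6.25% and 12.6% of all windows held, were not in the Otx2 window shown. Both Otx2 and Sall2 have other annotated starts, whose windows exons overlap. The Otx2 window at chr14:48665110-48665359 held 14 CG, 1 TAATCC and 3 TAATTA. Those at chr14:48667509-48667758 and chr14:48662735-48662984 held 8 and 9 CG and no motif. The Sall2 window at chr14:52328671-52328920 held 0 CG and 1 TATAAA. Exons also overlap the windows of Zic5, which held 11 CG and 1 GGAATG, and of Tead2, which held 7 CG and no motif. These matches describe letters only.

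Otx2, Zic2, Zic5 and Sall2 lie on chromosome 14, where 528 of the kept genes (3.25%) lie, and Zic2 and Zic5 are neighbours there. Fgf5 lies on chromosome 5, Pou3f1 on chromosome 4 and Tead2 on chromosome 7. No source used here states library strand, and some exons overlap genes on the opposite strand. Otx2os1, which overlaps Otx2, held 1 to 14 counts per library against 766 to 6212 for Otx2. Cd37, which overlaps Tead2, held 60 to 1235 counts against 1749 to 21236 for Tead2. Gm2164 overlaps Pou3f1 on the opposite strand and Gm49154 overlaps Otx2 on the same strand, and neither was among the genes counted.

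Total counts were 113221270 and 116086115 at MM401 day 3 and 74952496 and 80383376 at MM401 P2, and lay between 20831588 and 23677089 in the 10 other libraries. The summed level of 12 naive markers was 4095 and 4106 CPM (counts scaled to a common library size, here with TMM factors, which correct the total for composition) in ESC, against 599 and 624 CPM in EpiSC. It was 4211 and 4282 CPM at MM401 day 3, 2651 and 2784 CPM at MM401 P2, and between 5185 and 5844 CPM in the rES groups. That of 18 feeder fibroblast markers was 22839 and 23956 CPM at MM401 P2, and between 2227 and 7782 CPM elsewhere. That of 13 primitive and visceral endoderm markers was 3043 and 3046 CPM in ESC, and between 374 and 1180 CPM elsewhere. In bulk RNA, fewer cells of a type and less RNA per cell cannot be told apart. Every adjusted p below is from the quasi-likelihood F test of edgeR on all 14 libraries, two-sided and with Benjamini-Hochberg adjustment over all kept genes, and a gene is called, and said to be higher or lower, at an adjusted p under 0.05.

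**Figure D1:**
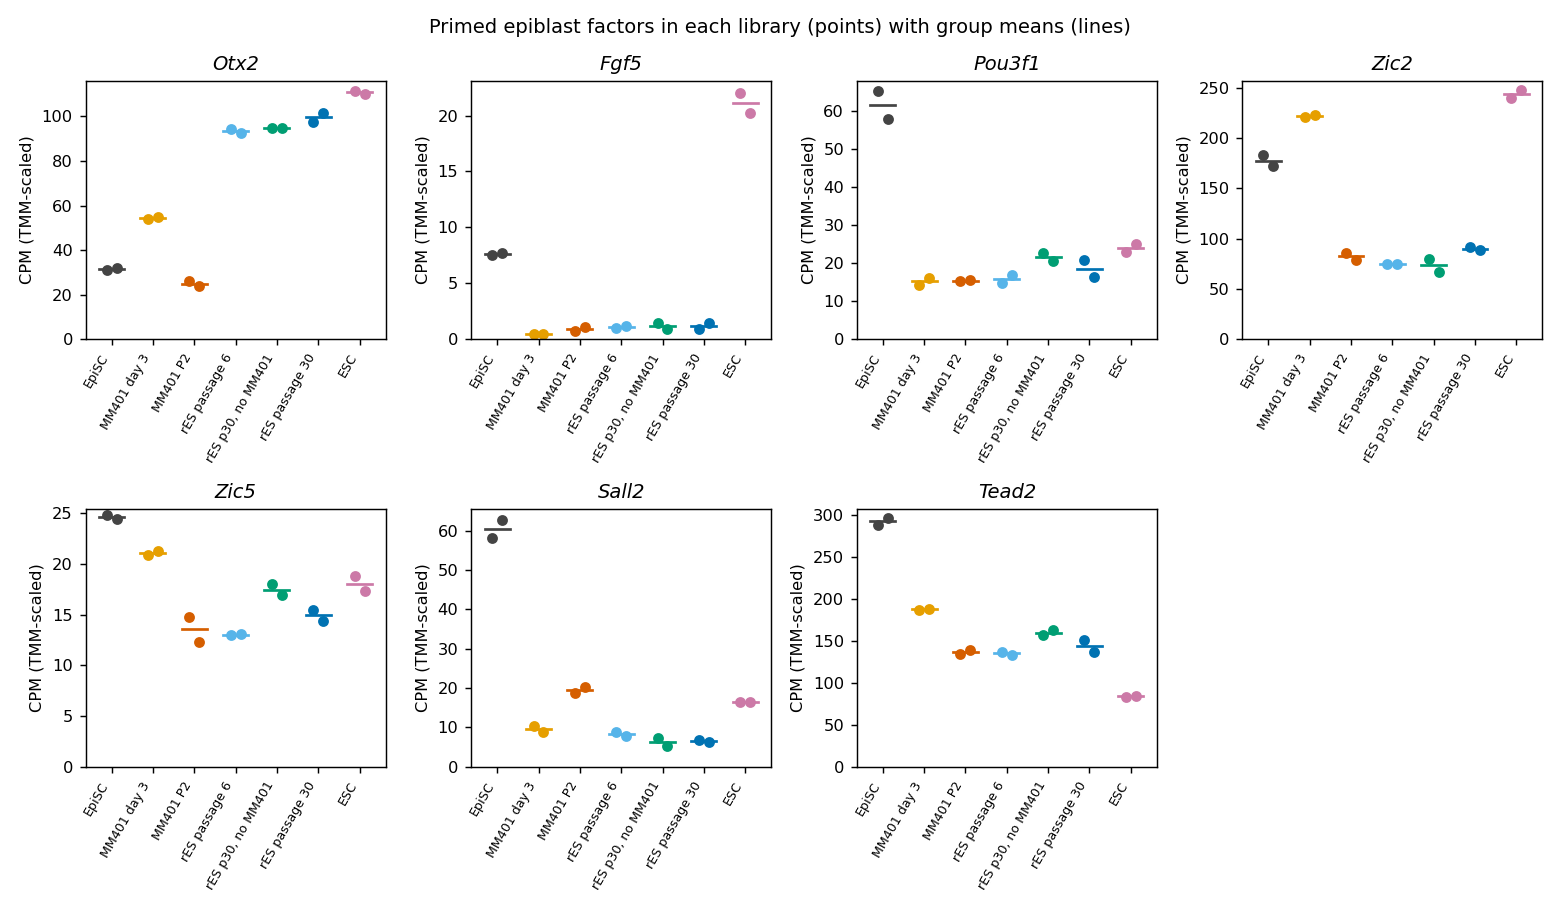
Level of each gene in each library, as TMM-scaled CPM on linear axes that start at 0 (points, 1 per library; lines, means of the 2 libraries of a group). Fgf5 is near the axis in the MM401 and rES groups (0.443 to 1.46 CPM), whereas Otx2 is at 92.6 to 101 CPM in the rES groups and at 31.3 and 31.9 CPM in EpiSC.

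Fgf5, the ligand of the set, had the widest range, 45.6-fold between the highest and lowest group mean. It was at 7.55 and 7.68 CPM in EpiSC, 0.485 and 0.443 CPM at MM401 day 3, 0.719 and 1.10 CPM at MM401 P2, 1.01 and 1.17 CPM in rES passage 6, and 0.939 and 1.46 CPM in rES passage 30. It was at 1.43 and 0.915 CPM in rES passage 30 without MM401 and at 22.0 and 20.2 CPM in ESC. All 10 libraries of the MM401 and rES groups thus lay below both EpiSC libraries, and the ESC libraries lay above them. These low levels rested on few reads, 50 and 53 counts at day 3 and 19 to 31 counts in the rES libraries, against 419 and 487 counts in ESC and 185 and 186 in EpiSC. In order of level, ESC stood above EpiSC, EpiSC above the rES groups and MM401 P2, and MM401 day 3 came last. The neighbours rES passage 30, passage 30 without MM401, passage 6 and MM401 P2 did not differ beyond their spread.

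Otx2, the homeodomain factor, was at 31.3 and 31.9 CPM in EpiSC, 54.0 and 55.02 CPM at MM401 day 3, 26.0 and 23.6 CPM at MM401 P2, 94.2 and 92.6 CPM in rES passage 6, and 97.7 and 101 CPM in rES passage 30. It was at 94.7 and 94.9 CPM in rES passage 30 without MM401 and at 112 and 110.04 CPM in ESC. The day 3 libraries lay above EpiSC and the P2 libraries below, and the rES and ESC libraries lay above all of these without overlap. The order ran ESC, the 3 rES groups, day 3, EpiSC, P2. Each step was called except those between the rES groups. EpiSC and P2 thus had the lowest levels of a gene known as a factor of the primed state.

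Pou3f1, the POU domain factor, was at 65.2 and 57.8 CPM in EpiSC, 14.1 and 16.1 CPM at MM401 day 3, 15.1 and 15.5 CPM at MM401 P2, 14.8 and 16.9 CPM in rES passage 6, and 20.8 and 16.2 CPM in rES passage 30. It was at 22.7 and 20.4 CPM in rES passage 30 without MM401 and at 22.9 and 25.0 CPM in ESC. EpiSC lay far above the rest. In the order below it (ESC, rES passage 30 without MM401, rES passage 30, rES passage 6, P2 and day 3) no step between neighbours was called, but groups further apart differed. Day 3, P2, rES passage 6 and rES passage 30 were lower than ESC (log2 fold changes -0.66, -0.64, -0.59 and -0.36), and rES passage 30 without MM401 was higher than passage 6 (0.44 ± 0.11, adjusted p = 0.00122).

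Zic2 was at 183 and 173 CPM in EpiSC, 221 and 224 CPM at MM401 day 3, 86.0 and 78.6 CPM at MM401 P2, 74.9 and 74.3 CPM in rES passage 6, and 91.4 and 88.3 CPM in rES passage 30. It was at 79.9 and 66.9 CPM in rES passage 30 without MM401 and at 240.5 and 248 CPM in ESC. The ESC, day 3 and EpiSC libraries all lay above the P2 and rES libraries, by a wide gap. Of the neighbours in the order ESC, day 3, EpiSC, rES passage 30, P2, rES passage 6, rES passage 30 without MM401, the last pair did not differ beyond their spread.

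Zic5, the neighbour of Zic2, had the narrowest range of the 7 genes, 1.89-fold between group means. It was at 24.8 and 24.4 CPM in EpiSC, 20.9 and 21.3 CPM at MM401 day 3, 14.7 and 12.3 CPM at MM401 P2, 12.98 and 13.04 CPM in rES passage 6, and 15.5 and 14.4 CPM in rES passage 30. It was at 18.0 and 16.9 CPM in rES passage 30 without MM401 and at 18.8 and 17.3 CPM in ESC. EpiSC stood above day 3, and day 3 above ESC. Below ESC no step between neighbours (rES passage 30 without MM401, rES passage 30, P2, rES passage 6) was called, although rES passage 30, P2 and passage 6 were lower than ESC (-0.27, -0.42 and -0.47 on the log2 scale).

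Sall2, the spalt family factor, had a 9.63-fold range between group means. It was at 58.1 and 62.7 CPM in EpiSC, 10.3 and 8.85 CPM at MM401 day 3, 18.8 and 20.2 CPM at MM401 P2, 8.77 and 7.80 CPM in rES passage 6, and 6.78 and 6.23 CPM in rES passage 30. It was at 7.34 and 5.20 CPM in rES passage 30 without MM401 and at 16.5 and 16.5 CPM in ESC. The EpiSC libraries lay far above all others, and P2 and ESC lay above day 3 and the rES libraries. From day 3 downwards (rES passage 6, rES passage 30, rES passage 30 without MM401) no step between neighbours was called, although rES passage 30 without MM401 was lower than day 3 (-0.61 on the log2 scale).

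Tead2, the Hippo pathway factor, was at 288 and 297 CPM in EpiSC, 187 and 188 CPM at MM401 day 3, 134 and 139 CPM at MM401 P2, 137 and 133 CPM in rES passage 6, and 151 and 137 CPM in rES passage 30. It was at 156 and 163 CPM in rES passage 30 without MM401 and at 83.0 and 84.5 CPM in ESC. EpiSC libraries were highest and ESC libraries lowest, with the treated and reverted libraries between them and overlapping neither. The neighbours rES passage 30, P2 and rES passage 6 did not differ beyond their spread.

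Genes were compared with each other only per kilobase of merged GENCODE M21 exons. On that scale Zic2 and Tead2 led in EpiSC, with means of 61.7 and 61.0 CPM per kb, followed by Pou3f1 at 16.0, Sall2 at 11.1, Otx2 at 7.48, Zic5 at 5.04 and Fgf5 at 3.04 CPM per kb. In ESC, Zic2 led at 84.8 CPM per kb, Otx2 followed at 26.2 and then Tead2 at 17.5, and Sall2 was last at 3.04 CPM per kb. In rES passage 30, Zic2, Tead2 and Otx2 were at 31.2, 30.04 and 23.6 CPM per kb, and Fgf5 was last at 0.480 CPM per kb.

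In ESC against EpiSC, 3 of the 7 genes, Otx2, Fgf5 and Zic2, were higher and 4 were lower. The 2 lines stand for the naive and the primed state, but their cultures also differed in base medium and in LIF and bFGF. All 7 were called, in a comparison where 74.5% of the genes tested were called. Otx2 was 3.51-fold higher in ESC (log2 fold change 1.81 ± 0.06 SE, adjusted p = 4.10e-28), and Fgf5 was 2.78-fold higher (1.47 ± 0.16, adjusted p = 2.16e-10). Zic2 was 1.37-fold higher (0.46 ± 0.05, adjusted p = 2.46e-09). Sall2 was 3.65-fold lower (-1.87 ± 0.09, adjusted p = 1.14e-20), Tead2 3.49-fold lower (-1.80 ± 0.04, adjusted p = 4.17e-31) and Pou3f1 2.57-fold lower (-1.36 ± 0.09, adjusted p = 1.48e-15). Zic5 was 1.36-fold lower (-0.45 ± 0.09, adjusted p = 3.88e-05), opposite in sign to its neighbour Zic2. Beside this, all 11 tested endoderm markers and 7 of 8 trophoblast markers were higher in ESC. Of 11 tested primitive streak and gastrulation genes, 8 were higher and 3 lower. The part of other cells in the Fgf5, Otx2 and Zic2 levels was not tested.

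At MM401 day 3 against EpiSC, Fgf5, Sall2 and Pou3f1 fell steeply while Otx2 and Zic2 rose. All 7 genes were called, against 76.6% of the genes tested. Fgf5 was 16.3-fold lower (-4.03 ± 0.21, adjusted p = 1.36e-20), Sall2 6.29-fold lower (-2.65 ± 0.09, adjusted p = 2.91e-27) and Pou3f1 4.07-fold lower (-2.02 ± 0.08, adjusted p = 9.58e-22). Tead2 was 1.56-fold lower (-0.64 ± 0.04, adjusted p = 7.15e-18) and Zic5 1.17-fold lower (-0.22 ± 0.08, adjusted p = 0.0113). Otx2 was 1.73-fold higher (0.79 ± 0.05, adjusted p = 1.21e-16) and Zic2 somewhat higher (0.32 ± 0.05, adjusted p = 8.16e-07). The Zic5 difference lost its call without EpiSC replicate 1 (adjusted p = 0.0725) and without MM401 day 3 replicate 1 (adjusted p = 0.0504).

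At MM401 P2 against EpiSC, all 7 genes were lower, and Otx2 and Zic2 were then on the other side of EpiSC from day 3. All 7 were called, against 75.9% of the genes tested. Fgf5 was 8.29-fold lower (-3.05 ± 0.20, adjusted p = 2.85e-17), Pou3f1 4.02-fold lower (-2.01 ± 0.08, adjusted p = 2.37e-21) and Sall2 3.09-fold lower (-1.63 ± 0.08, adjusted p = 1.21e-20). Zic2 and Tead2 were 2.16-fold and 2.14-fold lower (-1.11 ± 0.05 and -1.10 ± 0.04), Zic5 1.82-fold lower (-0.86 ± 0.08) and Otx2 1.27-fold lower (-0.35 ± 0.06, adjusted p = 7.59e-07). All 18 feeder markers were higher at P2, with a summed level of 22839 and 23956 CPM against 6154 and 6201 CPM in EpiSC, and their part in these lower values was not tested.

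Between MM401 P2 and MM401 day 3, 6 of the 7 genes differed, against 70.8% of the genes tested. Zic2 was 2.70-fold lower at P2 (-1.43 ± 0.05, adjusted p = 1.54e-21), Otx2 2.20-fold lower (-1.14 ± 0.05, adjusted p = 3.64e-23), Zic5 1.56-fold lower (-0.64 ± 0.08) and Tead2 1.37-fold lower (-0.46 ± 0.04). Sall2 was 2.03-fold higher at P2 (1.02 ± 0.08, adjusted p = 5.21e-14), and Fgf5 1.97-fold higher (0.98 ± 0.23, adjusted p = 3.13e-04). Pou3f1 was not called (0.02 ± 0.08, adjusted p = 0.869). The Fgf5 difference was 0.03 (adjusted p = 0.966) in 1 random thinning of all libraries to the depth of the shallowest, which leaves few Fgf5 reads. Feeder markers were at 22839 and 23956 CPM at P2, against 7745 and 7782 CPM at day 3, and their part in these differences was not tested.

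**Figure D2:**
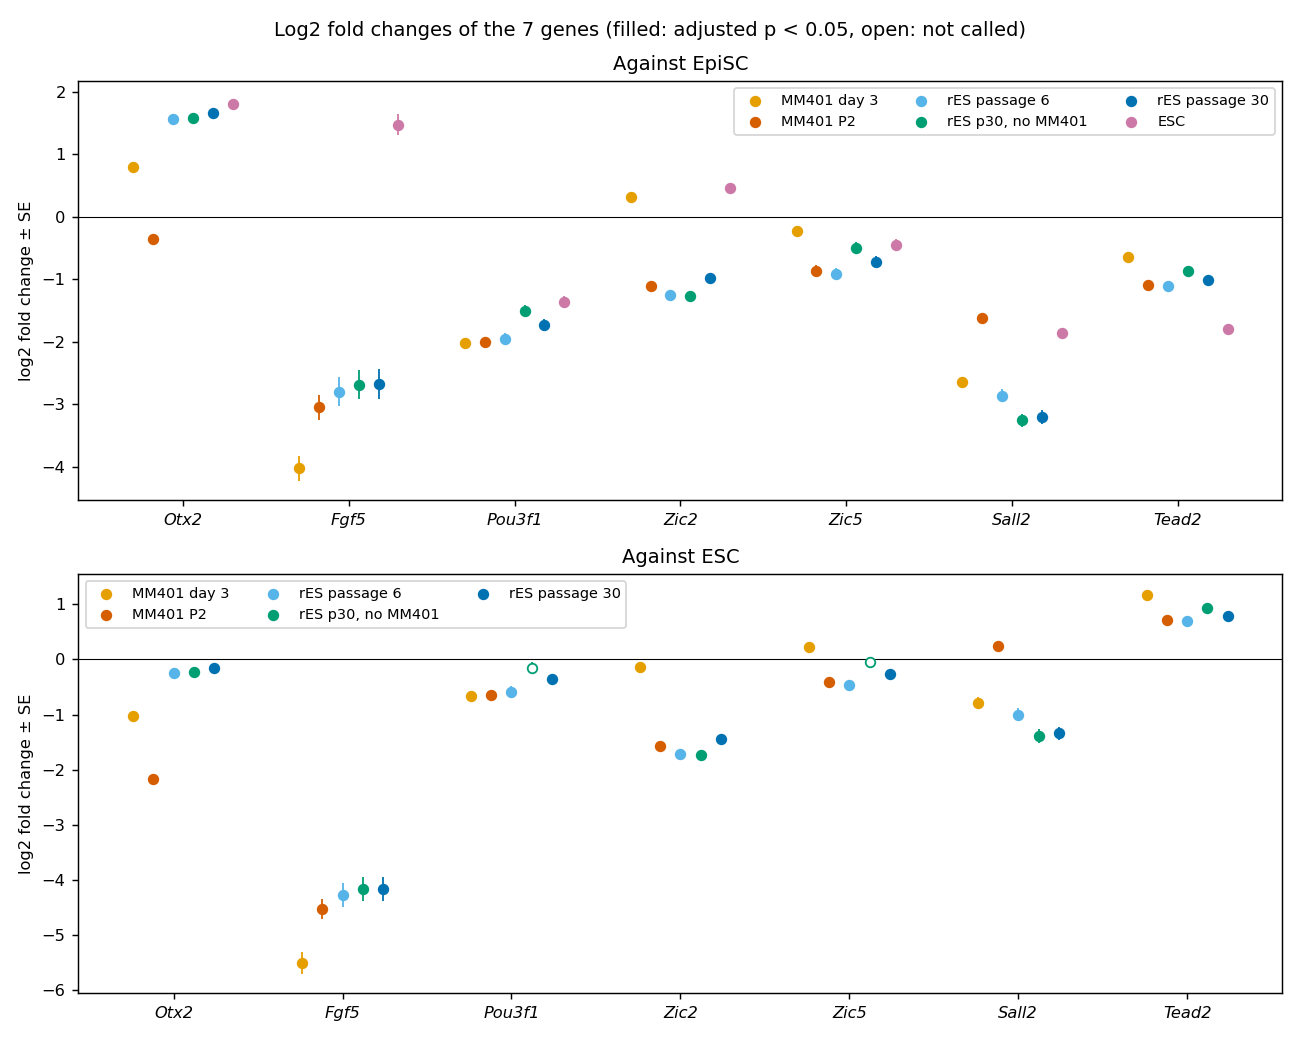
Log2 fold changes with their SE for each gene against EpiSC (upper panel, 6 groups) and against ESC (lower panel, 5 groups). Filled points passed an adjusted p of 0.05 and open points did not. Otx2 lies above 0 in 5 of 6 groups in the upper panel (log2 fold change -0.35 at MM401 P2), and Fgf5 lies between -5.50 and -4.15 in all 5 groups of the lower panel.

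In the established rES lines against EpiSC, Otx2 was higher and the other 6 genes were lower. At passage 6 all 7 were called, against 73.8% of the genes tested, at passage 30 all 7, against 76.3%, and at passage 30 without MM401 all 7, against 76.5%. At passage 30, Otx2 was 3.15-fold higher (1.66 ± 0.06, adjusted p = 7.49e-27), whereas Sall2 was 9.26-fold lower (-3.21 ± 0.11, adjusted p = 1.19e-26) and Fgf5 6.41-fold lower (-2.68 ± 0.23, adjusted p = 2.82e-13). Pou3f1 was 3.31-fold lower (-1.73 ± 0.09), Tead2 2.03-fold lower (-1.02 ± 0.04), Zic2 1.98-fold lower (-0.98 ± 0.05) and Zic5 1.65-fold lower (-0.72 ± 0.09). The log2 fold changes at passage 6 were 1.56 for Otx2, -2.87 for Sall2, -2.80 for Fgf5, -1.96 for Pou3f1, -1.25 for Zic2, -1.11 for Tead2 and -0.92 for Zic5. Without MM401 they were 1.59 for Otx2, -3.26 for Sall2, -2.69 for Fgf5, -1.51 for Pou3f1, -1.27 for Zic2, -0.87 for Tead2 and -0.50 for Zic5. These comparisons share the EpiSC libraries. Feeder markers were lower than in EpiSC at passage 30 (2483 and 2494 CPM), where 17 of 18 were called lower.

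In the rES lines against ESC, Fgf5 and Zic2 were much lower and Otx2 was close to the ESC level. At passage 30 all 7 genes were called, against 71.1% of the genes tested. Fgf5 was 17.8-fold lower (-4.15 ± 0.22, adjusted p = 5.95e-20), Zic2 2.72-fold lower (-1.44 ± 0.05, adjusted p = 1.81e-20) and Sall2 2.54-fold lower (-1.34 ± 0.12, adjusted p = 2.22e-12). Tead2 was 1.72-fold higher (0.78 ± 0.05, adjusted p = 2.74e-18). Otx2, Pou3f1 and Zic5 were lower by small margins (-0.15 ± 0.05, -0.36 ± 0.10 and -0.27 ± 0.10), with adjusted p of 0.00515, 0.00225 and 0.0140. Without rES passage 30 replicate 2, Pou3f1 and Zic5 were not called (adjusted p = 0.118 and 0.104), nor was Zic5 without ESC replicate 1 (adjusted p = 0.133). At passage 6 all 7 were called, against 69.3%, with Fgf5 at -4.27, Zic2 at -1.71 and Tead2 at 0.69 on the log2 scale. Without MM401 5 were called, against 71.3%, and Pou3f1 (-0.15 ± 0.10, adjusted p = 0.192) and Zic5 (-0.05 ± 0.10, adjusted p = 0.668) were not. Markers of other cell types were also lower than in ESC at passage 30, 10 of 11 tested endoderm markers (median log2 fold change -2.70) and 17 of 18 feeder markers (median -1.34), while 1 of each list was higher. The endoderm markers summed to 486 and 512 CPM, against 3043 and 3046 CPM in ESC, and the feeder markers to 2483 and 2494 CPM, against 7087 and 7090 CPM in ESC, and their part in these differences was not tested.

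The MM401 groups were also set against ESC. At day 3 all 7 genes were called, against 71.2% of the genes tested. Fgf5 was 45.3-fold lower there (-5.50 ± 0.20, adjusted p = 2.18e-25), Otx2 2.03-fold lower (-1.02 ± 0.05) and Tead2 2.24-fold higher (1.16 ± 0.04), and Zic2 (-0.14 ± 0.05, adjusted p = 0.0141) and Zic5 (0.22 ± 0.08, adjusted p = 0.0182) differed little. At P2 all 7 were called, against 74.7%, with Fgf5 23.0-fold lower (-4.52 ± 0.19), Otx2 4.47-fold lower (-2.16 ± 0.05) and Zic2 2.97-fold lower (-1.57 ± 0.05). The calls of Zic2 and Zic5 at day 3, and of Sall2 at P2 (0.24 ± 0.10, adjusted p = 0.0230), were lost without ESC replicate 2 (adjusted p = 0.127, 0.170 and 0.0906). They were also lost without day 3 replicate 1 for Zic2 (adjusted p = 0.0760), without day 3 replicate 2 for Zic5 (0.0539), and without ESC replicate 1 or P2 replicate 2 for Sall2 (0.0952 and 0.126).

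In rES passage 6 against MM401 P2, Otx2 was higher and Sall2 lower. Otx2 was 3.77-fold higher at passage 6 (1.91 ± 0.05, adjusted p = 4.48e-30), Sall2 was 2.36-fold lower (-1.24 ± 0.11, adjusted p = 2.34e-13) and Zic2 was 1.10-fold lower (-0.14 ± 0.06, adjusted p = 0.0225). With 3 of 7 genes called, against 73% of the genes tested, Fgf5 (0.25 ± 0.28), Pou3f1 (0.05 ± 0.10), Zic5 (-0.06 ± 0.09) and Tead2 (-0.02 ± 0.04) were not. The Zic2 call was lost without either rES passage 6 library (adjusted p = 0.0762 and 0.109) and without MM401 P2 replicate 1 (adjusted p = 0.250). Feeder markers were at 5789.5 and 5836 CPM at passage 6, against 22839 and 23956 CPM at P2, and their part was not tested.

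Between passages 30 and 6 of the rES line, Zic2 was the only gene of the set called. It was at 91.4 and 88.3 CPM at passage 30 and at 74.9 and 74.3 CPM at passage 6, a 1.21-fold higher level (0.27 ± 0.06, adjusted p = 8.41e-04). Among all genes tested 25.6% were called. All 18 feeder markers were lower at passage 30, with a median log2 fold change of -1.01 and a summed level of 2483 and 2494 CPM, against 5789.5 and 5836 CPM at passage 6, and their part in the Zic2 difference was not tested. The other 6 genes ran from -0.34 ± 0.14 (Sall2, adjusted p = 0.0677) to 0.23 ± 0.11 (Pou3f1, adjusted p = 0.129) on the log2 scale. Without rES passage 30 replicate 2, which had the highest share of the ribosomal RNA precursor Rn45s (2.00%), 3 genes were called, with Pou3f1 (0.39, adjusted p = 0.0171) and Tead2 (0.16, adjusted p = 0.0159) joining Zic2.

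After growth without MM401, against passage 30 with it, Zic2 was lower and Tead2 higher, both by small margins. Zic2 was at 79.9 and 66.9 CPM without MM401 and at 91.4 and 88.3 CPM with it (-0.29 ± 0.06, adjusted p = 5.93e-04). Tead2 was at 156 and 163 CPM without MM401 and at 151 and 137 CPM with it (0.15 ± 0.04, adjusted p = 0.0125). The other 5 genes were not called, so 2 of 7 were, against 19.7% of the genes tested. Fgf5 (-0.01 ± 0.32) and Sall2 (-0.05 ± 0.15) had differences within their errors. Of the 18 feeder markers 5 were higher and 8 lower without MM401 (summed level 2227 and 2306 CPM, against 2483 and 2494 CPM), and their part was not tested. Without rES passage 30 replicate 2 the Tead2 call was lost (adjusted p = 0.309), and without replicate 2 of the group without MM401 both calls were (adjusted p = 0.0547 for Zic2 and 0.129 for Tead2). Without rES passage 30 replicate 1, Pou3f1 was called as well (0.41, adjusted p = 0.0194).

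The order of levels above also used 4 comparisons that are described only there. Of the genes tested, 36.6% were called in rES passage 30 without MM401 against passage 6, 69.5% in that group against MM401 day 3, 76.6% in rES passage 30 against MM401 P2 and 69% in rES passage 6 against MM401 day 3.

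Zic2 and Zic5 share a locus, and their counts were set against each other within each library, as a description with no test. A library held 7.37 and 7.06 Zic2 counts per Zic5 count in EpiSC, 10.6 and 10.5 at MM401 day 3, 5.84 and 6.37 at MM401 P2, 5.77 and 5.70 in rES passage 6, and 5.90 and 6.13 in rES passage 30. The ratio was 4.43 and 3.95 in rES passage 30 without MM401 and 12.8 and 14.3 in ESC. It was thus highest in ESC and day 3 and lowest in the rES line grown without MM401, whose 2 libraries overlapped no other group.

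**Figure D3:**
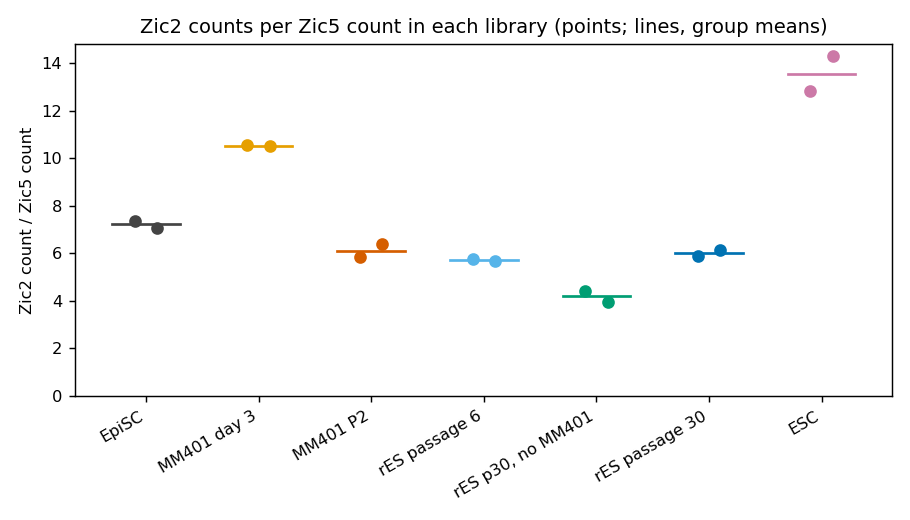
Zic2 counts per Zic5 count in each library (points, 1 per library; lines, means of the 2 libraries of a group). The ratio is at 12.8 and 14.3 in ESC and at 4.43 and 3.95 in rES passage 30 without MM401.

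Of 15 paralogs of the 7 genes, 13 passed the filter (not Zic4 and Fgf6), and several moved against their relatives in the set. While Sall2 fell in every group against EpiSC, Sall4, a core pluripotency factor, was 1.07 higher on the log2 scale in ESC (504.8 against 241 CPM), 0.89 higher at MM401 day 3 and 0.85 higher in rES passage 30, with a value of 0.07 at MM401 P2 that was not called. Sall1 was higher in these 4 groups (1.04, 0.89, 1.29 and 0.54 in ESC, day 3, rES passage 30 and P2), as was Sall3 (4.42, 2.19, 3.27 and 1.34). Tead4, known for its role in the trophectoderm, was higher while Tead2 was lower, at 48.3, 40.7, 69.3 and 35.1 CPM in ESC, day 3, rES passage 30 and P2, against 7.58 CPM in EpiSC.

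Fgf4, the ligand that ESC themselves secrete, was higher by 2.44, 2.44, 2.29 and 2.39 on the log2 scale in ESC, day 3, P2 and rES passage 30 than in EpiSC, with 318, 318, 287 and 308 CPM against 58.5 CPM in EpiSC, and so ran against Fgf5 in the MM401 and rES groups. Tead3 was lower in ESC, day 3 and rES passage 30 (-0.96, -1.07 and -1.38) and not called at P2 (0.14). Tead1 was at 0.46, 0.03, 0.37 and 0.11 in ESC, day 3, P2 and rES passage 30, not called at day 3, and on total counts the rES passage 30 value turned to -0.04 (adjusted p = 0.396). In rES passage 30 without MM401, Tead1 was lower than in EpiSC (-0.44 ± 0.04, adjusted p = 3.50e-11) and lower than in passage 30 with MM401 (-0.55 ± 0.04, adjusted p = 1.79e-11).

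The remaining paralogs were at low levels. Pou3f2 and Pou3f4 were lower than in EpiSC in ESC, day 3, P2 and rES passage 30, as Pou3f1 was, with EpiSC means of 1.93 and 1.07 CPM. Pou3f3 was higher in these 4 groups, at 0.893 to 3.84 CPM in the groups other than EpiSC (0.492 CPM). Otx1 and Crx, the relatives of Otx2, were higher at day 3, P2 and rES passage 30 and not called in ESC, with no group mean above 1.77 CPM. Zic1 reached 4.17 CPM at P2 and 3.90 CPM in ESC, against 1.253 CPM in EpiSC (log2 fold changes 1.73 and 1.63). It was lower in rES passage 30, at 0.655 CPM (-0.92 ± 0.36, adjusted p = 0.0190), and not called at day 3 (0.21).

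Among 16 other genes known from the formative and primed epiblast, 10 were lower and 5 higher in ESC than in EpiSC, with a median log2 fold change of -0.88. At MM401 day 3, 12 were lower and 3 higher (median -2.08), at MM401 P2 11 and 4 (median -1.70), in rES passage 6 10 and 5 (median -1.83), in rES passage 30 10 and 6 (median -1.55) and without MM401 10 and 4 (median -1.73). The medians of all genes lay between -0.02 and 0.08, and 73.8% to 76.6% of all genes were called. In each of these 6 comparisons, which share the EpiSC libraries, more of the 16 genes were lower than higher.

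Dnmt3b, a de novo DNA methyltransferase, was at 61.9 CPM at day 3, 25.4 CPM at P2 and 37.4 CPM in rES passage 30, against 567 CPM in EpiSC (-3.19 ± 0.04, -4.48 ± 0.05 and -3.92 ± 0.05). Sox11, a neural SoxC factor, was at 9.52, 17.7 and 9.05 CPM in the same groups, against 182 CPM in EpiSC. Grb10, an imprinted adaptor of growth factor receptors, was at 105, 185 and 43.5 CPM, against 719 CPM in EpiSC. Among the genes that rose were Etv4 and Etv5, ETS factors induced by FGF signalling. Etv4 was at 187 CPM at day 3, 81.5 CPM at P2 and 127 CPM in rES passage 30, against 47.4 CPM in EpiSC, and Etv5 at 344 and 231 CPM at day 3 and P2, against 155 CPM in EpiSC. In ESC, Grhl2, an epithelial factor of the formative state, was 2.97 ± 0.07 higher (149 against 19.0 CPM).

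**Figure D4:**
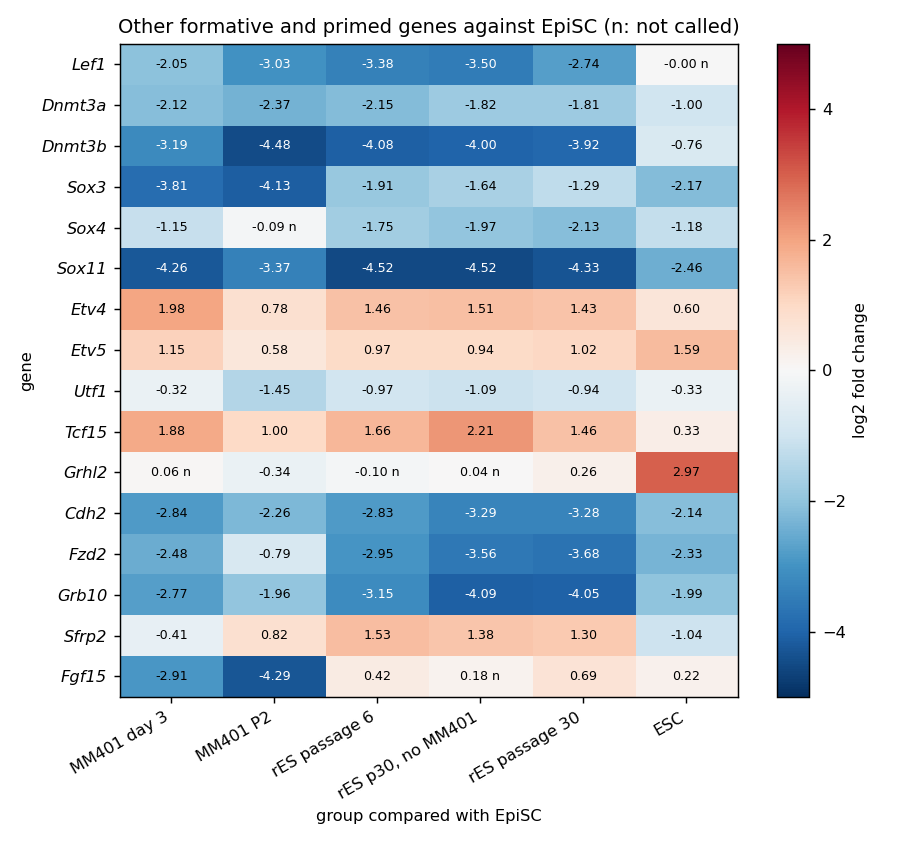
Log2 fold changes of 16 other formative and primed epiblast genes against EpiSC, coloured by value, with 1 column per group and n for a value that was not called. Dnmt3b is at -3.19, -4.48 and -3.92 at MM401 day 3, MM401 P2 and rES passage 30, and at -0.76 in ESC.

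The set includes an FGF ligand and a TEAD factor, and genes of both pathways were counted. Of 14 FGF receptors and ERK feedback genes, 9 were higher and 3 lower in ESC than in EpiSC (Dusp4 2.93 ± 0.06, Spry4 2.31 ± 0.05, Egr1 -3.34 ± 0.05). In rES passage 30, 7 were higher and 6 lower (Spry4 1.92 ± 0.06, Egr1 -1.73 ± 0.05, Fgfr1 -1.40 ± 0.04), at day 3 5 and 6, and at P2 6 and 7. The list medians were 0.55, 0.17, -0.02 and -0.06 in ESC, rES passage 30, day 3 and P2. Of all genes tested, 74.5%, 76.3%, 76.6% and 75.9% were called in these comparisons. Of 13 TEAD coactivators, their inhibitors and Hippo targets, 12 were higher and 1 lower at P2 than at day 3, where 70.8% of all genes were called, with a median log2 fold change of 0.85 against 0.04 over all genes. Against EpiSC, with the shares of all genes just given, 2 were higher and 9 lower at day 3, and 8 higher and 1 lower at P2. In rES passage 30, 3 were higher and 9 lower, and in ESC 7 higher and 5 lower. On total counts, Nf2, Cyr61 and Ankrd1, which were higher at P2 than in EpiSC, lost their calls. Their log2 fold changes were then 0.04, 0.01 and 0.02 (adjusted p = 0.280, 0.795 and 0.851). Ctgf and Cyr61, matrix genes that Yap1 and TEAD factors induce, were at 655 and 585 CPM at P2, against 257 and 274 CPM at day 3, and Tead2 was lower there. Fibroblasts also express both of these genes, and the feeder marker levels given above were also higher at P2 than at day 3. In EpiSC, Ctgf was at 148 CPM and Cyr61 at 525 CPM, with feeder markers at 6154 and 6201 CPM, against 7745 and 7782 CPM at day 3. The part of feeder cells in the Ctgf and Cyr61 levels was not tested.

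For each gene, the 3 other genes with the most similar log2 CPM over the 14 libraries were found among 11753 genes with a mean of at least 8 CPM in their highest group. The measure is Pearson's r, given as a description with no p, since the 14 libraries are 7 pairs that each share a source. Otx2 was most like Aire (0.996), Spns1 (0.994) and Tmem8 (0.994), and Aire was at 87.5 CPM in ESC and 69.5 CPM in rES passage 30, against 1.97 CPM in EpiSC. Fgf5 was most like Krt8 (0.984), Car4 (0.972) and Krt18 (0.970), of which Krt8 and Krt18 encode paired simple epithelial keratins. Krt8 was at 59.6 CPM in ESC, against 32.2 CPM in EpiSC, and at 3.45 to 7.34 CPM in the MM401 and rES groups. Sall2 was most like Slit1 (0.990), Fam46a (0.990) and Ddr1 (0.988), Pou3f1 like Shb (0.983), Tppp3 (0.970) and Ptrh2 (0.970), and Tead2 like Mdm1 (0.988), Nap1l1 (0.984) and Prpsap2 (0.972). Zic2 was most like Ythdf2 (0.970), Tchh (0.968) and Prep (0.961), and Zic5 like Gspt1 (0.954), Cwc25 (0.948) and Ppm1g (0.945), the lowest values of the set. With r taken over the 7 group means, several of these genes were no longer among the 3 most alike. Gspt1 then ranked 9, Cwc25 13, Prep and Prpsap2 7, Car4 5, and Krt18, Ptrh2 and Fam46a 4.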

How the data were processed

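The values are raw read counts that the authors deposited for 24015 gene rows. Per the labels' protocols, single-end TruSeq libraries were made from column-purified, DNase-treated RNA. TopHat2, Subread, DESeq and the build mm9 appear in the submitters' processing notes, with no versions or roles. How reads mapping to several places were counted is not stated, so reads shared by paralogs are uncertain. Table columns matching no sample label (2) were not used, and 27 names read as dates held at most 0.254% of a library's counts.

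Genes were filtered with filterByExpr and fitted with 1 mean per group over 14 libraries (TMM, edgeR 4.0.16 in R 4.3.3, robust quasi-likelihood test). The procedure was tested on simulated data in which few genes changed, as many up as down. In most comparisons here most genes were called, so that test does not cover the scaling or the error rate in these data. The SE is the absolute log2 fold change over the square root of F. The genes and lists were chosen with earlier results of these data known. Named are the 7 genes, their paralogs, up to 4 called genes per list and comparison by smallest adjusted p, and the 3 genes most alike to each member, and 1 gene is not reported here. Alternatives were RLE factors, total counts, no filter, thinning, the 4 compared libraries alone, DESeq2 1.42.0, a 2-fold threshold, a replicate block and leaving out each library, and for the most alike genes a prior count of 0.5 and the 7 group means.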

Additional observations from a re-analysis of the deposited data

Results flagged for a closer look

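The log2 fold changes of MM401 P2 and MM401 day 3 against EpiSC, 2 groups that had LIF medium and MM401 together, differed from each other in 6 of the 7 genes, in a comparison where 70.8% of the genes tested differed. Both are taken against the same EpiSC libraries, so the difference equals the P2 against day 3 comparison and was tested as such with edgeR. It was -1.43 for Zic2, -1.14 for Otx2, -0.64 for Zic5, -0.46 for Tead2, 1.02 for Sall2 and 0.98 for Fgf5 on the log2 scale. For Otx2 and Zic2 the sign against EpiSC also changed, since both were lower at P2 and higher at day 3. Total counts were 74952496 and 80383376 at P2, against 113221270 and 116086115 at day 3. The feeder marker sum was 22839 and 23956 CPM at P2, against 7745 and 7782 CPM at day 3. The part of either in these differences was not tested. In 1 random thinning of all libraries to the depth of the shallowest, only the Fgf5 difference of the 6 lost its call (0.03). Fgf5 had 53 and 50 counts at day 3 before thinning, so 1 draw does not show what part depth had.

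The log2 fold changes of rES passage 30 and passage 6 against EpiSC differed for Zic2, by 0.27, where 25.6% of the genes tested differed.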

How the results depend on the processing

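The log2 fold changes of the 7 genes in 15 comparisons gave 735 values under other settings, of which 721 kept their direction and side of the threshold, and 420 values with 1 library left out, of which 386 did. The calls that these ended are given in the report, except that Sall2 in MM401 P2 against ESC was also lost with RLE factors, DESeq2 and the 4 compared libraries alone (0.20, 0.19 and 0.18), Zic5 in day 3 against ESC with DESeq2 (0.22, adjusted p = 0.0514), Zic2 in rES passage 6 against P2 on total counts (-0.12), and Tead2 in rES passage 30 without MM401 against with it in the 4 libraries alone (0.15, adjusted p = 0.0556). The cause was not tested. Fgf5 in P2 against day 3 fell to 0.03 in the 1 random thinning made, where few reads remain.

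The direction turned only for values that were not called. Pou3f1 in P2 against day 3 was -0.0134 in the 4 libraries alone, -0.0197 with DESeq2, -0.0198 with RLE factors and -0.0767 after thinning, and ran from -0.0805 to 0.1135 with 1 library left out. Tead2 in rES passage 6 against P2 was 0.0050 on total counts and ran from -0.0442 to 0.0105 with 1 library left out, when Fgf5 ran from -0.0169 to 0.597, Pou3f1 from -0.0513 to 0.1433 and Zic5 from -0.1821 to 0.0771 in that comparison. With 1 library left out, Zic5 ran from -0.1017 to 0.0100 in rES passage 30 without MM401 against ESC, and Fgf5 from -0.2165 to 0.4296 in rES passage 30 against passage 6. In growth without MM401 against with it, Fgf5 ran from -0.3709 to 0.3281 and Sall2 from -0.3246 to 0.1725.

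With a 2-fold threshold added, 3 of the 7 genes were called in MM401 day 3 against EpiSC, in P2 against day 3, and in each of the 5 treated or reverted groups against ESC, and 0 in rES passage 30 against passage 6 and in growth without MM401 against with it. All genes called then numbered 4523 in ESC, 4450 at day 3, 4461 at P2, 4657 in rES passage 6, 5195 in rES passage 30 and 5276 without MM401 against EpiSC. Against ESC they numbered 3236 at day 3, 3874 at P2, 3361 in rES passage 6, 3779 in rES passage 30 and 3908 without MM401. They numbered 2566 in P2 against day 3 and 3902 in rES passage 6 against P2. They numbered 410 in rES passage 30 against passage 6 and 44 in growth without MM401 against with it. Without the 2-fold threshold, the main fit called 25.6% and 19.7% of the genes tested in these last comparisons. With RLE factors, 2463 genes were higher and 2074 lower in rES passage 30 against passage 6, of 16247 tested. The shares with DESeq2 and in the 4 libraries alone are not given here, so the counts below for those settings have no background. In rES passage 30 against passage 6, 2 of the 7 genes were called with RLE factors and 2 with DESeq2, and 1 to 3 with 1 library left out, when 2711 to 3619 genes in all were called. In growth without MM401 against with it, 1 of the 7 was called in the 4 libraries alone and 0 to 3 with 1 library left out, when 1991 to 2751 genes in all were called.

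Same-numbered replicates of different groups did not deviate together (r from -0.11 to 0.10 over 21 pairs of groups). With the replicate block 7 of the 7 genes were called in ESC against EpiSC, where the main fit called 74.5% of the genes tested. The block changed no call of the 7 genes. On total counts the median of all genes moved by -0.13 to -0.17 against EpiSC, and the share of calls that were higher moved to 38.6% from 50.6% at day 3 and to 45.3% from 55.5% at P2. In rES passage 30 against passage 6 that share was 43.9%, and 54.3% with RLE factors.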

Other observations

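Lists of other lineages were counted beside the 7 genes. Of 12 primitive streak and gastrulation genes, 11 were tested. In ESC against EpiSC, where 74.5% of all genes were called, 8 were higher and 3 lower. Foxa2 was at 11.02 against 0.432 CPM and Cer1 at 7.39 against 0.246 CPM. All 11 tested endoderm markers were also higher in ESC, with a median log2 fold change of 4.67, and Foxa2 is on both lists. The part of endoderm cells in the streak counts was not tested. At MM401 day 3 against EpiSC, where 76.6% of all genes were called, 3 of the streak genes were higher and 6 lower. Gsc, a factor of the organizer, was at 12.01 CPM against 0.431 CPM in EpiSC, and Wnt3 at 0.512 against 11.2 CPM. In rES passage 30 against EpiSC, where 76.3% of all genes were called, 2 were higher and 5 lower, with Gsc at 6.30 CPM against 0.431 CPM in EpiSC.

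Of 12 neuroectoderm markers, 9 were tested, and 6 were lower and 3 higher at MM401 day 3 than in EpiSC, 6 lower and 2 higher at P2, and 6 lower and 1 higher in rES passage 30, against 76.6%, 75.9% and 76.3% of all genes called in either direction. Nes was lower at day 3 and P2 (log2 fold changes -3.31 and -3.17), whereas Tubb3 was higher at day 3 (0.87) and Pax6 at P2 (1.71). The summed level of the 12 markers was 150 CPM in both day 3 libraries, 121 and 127 CPM at P2, and 98.2 and 105 CPM in rES passage 30, against 540 and 542 CPM in EpiSC. The summed level of 8 trophoblast markers was 194 and 196 CPM in ESC, against 89.8 and 94.4 CPM in EpiSC. It was 185 and 188 CPM at day 3, 123 and 127 CPM at P2, and between 84.2 and 95.1 CPM in the rES groups.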
